A study of Mus musculus with 26 samples.

Results

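The genes described here encode the ligands, receptors and Smad proteins of bone morphogenetic protein (BMP) and transforming growth factor beta (TGF-beta) signalling in mouse osteosarcoma, a cancer whose cells form bone matrix. Members were the genes whose symbol starts with Bmp, Gdf, Inhb, Tgfb, Tgfbr, Acvr or Smad followed by a number or letter, with Tgfbi and Tgfbrap1 left out. Membership was set by symbol alone, but the rule was chosen with earlier results of these data known. The rule found 46 of the 18194 genes that the platform annotation names singly, and each was read from whichever of its probe sets was brightest on average over the 26 arrays. By role they were 9 BMP ligands, 6 growth and differentiation factors, 4 inhibin beta subunits, 3 TGF-beta ligands, 7 type I receptors, 4 type II receptors, 1 co-receptor, 5 receptor Smads, 1 common Smad and 2 inhibitory Smads. The other 4, Bmp1, Bmp2k, Bmper and Tgfb1i1, share the prefix but encode no ligand, receptor or Smad of these kinds, and are kept apart below.

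The series held 3 cultures of wild-type osteoblasts differentiated in vitro, which served as the control, and 3 kinds of tumour sample: 15 primary osteosarcomas, 4 lines grown from osteosarcoma and 4 secondary tumours. Each sample was on 1 array. Secondary tumours 29, 64 and 94 are labelled as transplants. Number 66 is labelled as tumour tissue that came from a cell line, while its title calls it a cell line. The titles of the secondary tumours carry the prefix OPflR, which the labels do not explain, and neither they nor the design text give the genotype, strain, age or host of the tumour samples. Nothing in the labels says that the cultures came from separate animals, so p-values against them measure the spread between these cultures, which may be technical.

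BMP and TGF-beta family ligands are secreted dimers that bring together type II and type I receptor kinases on the cell surface. The type II receptor activates the type I receptor, which phosphorylates receptor Smads; these join Smad4 and act in the nucleus, and Smad6 and Smad7 limit the response. BMPs are known for driving osteoblast differentiation and bone formation, while TGF-beta is stored in bone matrix in latent form and acts on osteoblast progenitors and bone turnover.

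Levels are log2 intensities of a probe set, raised to a floor of 3.64, and differences are between means of such levels. They compare samples for 1 gene and do not rank genes against each other. Of the members, 36 passed the filter on dim probe sets and were tested, and 10 were not (Acvr1c, Bmp10, Bmp15, Bmp8b, Bmpr1b, Gdf3, Gdf5, Inhbc, Inhbe and Smad9). Bmp10 and Inhbc lay at the floor on all 26 arrays. A gene was called when limma's adjusted p was below 0.05 and the fold change was at least 2, with p-values adjusted by Benjamini-Hochberg over the 12888 genes tested.

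The samples differed in more than their group. Array medians, on the intensity scale, were 46.4 to 48.2 in osteoblasts and 44.4 to 48.2 in cell lines. They were 50.4 to 58.8 in primary and 54.9 to 58.1 in secondary tumours, so every tumour array stood above both kinds of culture. The ratio of the bioB to bioC hybridisation controls parted the arrays into 3 sets: the lowest held 7 primary tumours and the 4 secondary tumours, the middle held the 3 osteoblast cultures, and the highest held 8 primary tumours and the 4 cell lines. In every comparison against osteoblasts, set and group therefore cannot be told apart. Macrophage markers, all 12 measured, averaged 5.39 to 5.55 in osteoblasts and 5.22 to 5.43 in cell lines, against 8.68 to 11.01 in primary and 8.72 to 10.41 in secondary tumours. C1qa lay at the floor on all osteoblast arrays. The 10 endothelial markers averaged 6.79 to 8.05 in primary tumours, 6.45 to 7.87 in secondary tumours, 5.51 to 6.08 in osteoblasts and 5.01 to 5.12 in cell lines. Of the adipocyte markers, 7 of 8 were tested, and they averaged 11.02 to 11.09 in the osteoblast cultures and at most 7.26 elsewhere. The 8 smooth muscle and pericyte markers averaged 9.32 to 9.73 in osteoblasts, 7.59 to 8.93 in primary tumours, 7.39 to 7.70 in secondary tumours and 7.89 to 9.15 in cell lines, but its genes went both ways: in primary tumours against osteoblasts 1 of the 8 was called higher and 4 lower. By group mean Tagln, Myh11 and Cnn1 were highest in osteoblasts, whereas Rgs5, a pericyte marker, was 7.16 there and 10.02 and 10.33 in primary and secondary tumours. The 7 of 10 osteoblast markers tested averaged 10.12 to 10.31 in osteoblasts, 7.23 to 11.53 in primary tumours, 9.13 to 11.39 in secondary tumours and 6.80 to 8.86 in cell lines. The 10 skeletal muscle markers ranged most widely, from 4.39 to 10.90 in primary tumours, with 4.63 to 4.69 in osteoblasts, 4.60 to 8.91 in cell lines and 4.21 to 4.68 in secondary tumours. The part of these other cells in the results below was not tested. In such bulk samples fewer cells of a type and less RNA per cell cannot be told apart.

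Promoter sequence was examined for the members present in the promoter set used here, as the 250 bases before each start in assembly GRCm38.p6. Of the 46 members, 33 matched, with 39 promoters between them. The others, Bmp2, Bmp7 and Tgfbr3 among them, had no promoter in that set. The GC box GGGCGG, on either strand, was present in 25 of the 39 (64.1%), against 32.7% of all 32851 promoters. The Smad box CAGAC was found in 38.5% of member promoters and 42.2% of all, and the GC-rich Smad element GGCGCC, which reads the same on both strands, in 15.4% and 9.59%. The RUNX site TGTGGT was found in 5.13% and 14.0%, and the TATA box TATAAA in 15.4% and 12.4%. Matches of different motifs can share bases, promoters of members ran from 40.4% to 85.6% G and C (the median of all promoters was 52.4%), and a match is a description of letters, not of binding. The 6 printed here belong to members that had a promoter in the set and whose levels are described fully below. Tgfb1 and Bmp6 were higher in tumours than in osteoblasts, and Bmper and Acvr2a were lower. Bmp5 split the primary tumours, and Smad6 stood out in 1 tumour. They run 5′ to 3′ on the gene's strand, and capitals mark any of these motifs on either strand.
Tgfb1, chr7:25686752-25687001, plus strand: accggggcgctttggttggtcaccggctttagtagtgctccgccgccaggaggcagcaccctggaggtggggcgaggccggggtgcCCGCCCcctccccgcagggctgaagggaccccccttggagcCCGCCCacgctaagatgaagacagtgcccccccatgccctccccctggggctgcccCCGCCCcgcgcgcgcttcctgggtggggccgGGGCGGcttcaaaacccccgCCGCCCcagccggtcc
Bmp6, chr13:38345466-38345715, plus strand: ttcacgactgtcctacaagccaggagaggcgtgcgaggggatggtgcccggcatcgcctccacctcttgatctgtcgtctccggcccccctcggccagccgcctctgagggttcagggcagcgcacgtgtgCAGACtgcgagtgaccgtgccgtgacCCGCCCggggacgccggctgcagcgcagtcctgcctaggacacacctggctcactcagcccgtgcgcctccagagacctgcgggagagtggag
Bmper, chr9:23222826-23223075, plus strand: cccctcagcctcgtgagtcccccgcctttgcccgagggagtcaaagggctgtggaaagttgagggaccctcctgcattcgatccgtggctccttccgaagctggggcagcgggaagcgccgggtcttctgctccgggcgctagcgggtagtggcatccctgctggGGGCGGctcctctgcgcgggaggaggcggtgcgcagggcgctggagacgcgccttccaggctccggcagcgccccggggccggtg
Acvr2a, chr2:48813859-48814108, plus strand: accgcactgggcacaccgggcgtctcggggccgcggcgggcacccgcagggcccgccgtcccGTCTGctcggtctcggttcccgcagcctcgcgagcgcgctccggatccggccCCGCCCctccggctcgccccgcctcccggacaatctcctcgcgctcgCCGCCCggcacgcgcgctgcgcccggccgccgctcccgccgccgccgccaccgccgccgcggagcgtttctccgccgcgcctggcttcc
Bmp5, chr9:75775115-75775364, plus strand: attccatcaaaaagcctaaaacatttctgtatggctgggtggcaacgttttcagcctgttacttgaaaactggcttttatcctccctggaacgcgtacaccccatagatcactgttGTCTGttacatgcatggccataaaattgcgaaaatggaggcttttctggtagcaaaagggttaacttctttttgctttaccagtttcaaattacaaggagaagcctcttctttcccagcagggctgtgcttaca
Smad6, chr9:64022060-64022309, minus strand: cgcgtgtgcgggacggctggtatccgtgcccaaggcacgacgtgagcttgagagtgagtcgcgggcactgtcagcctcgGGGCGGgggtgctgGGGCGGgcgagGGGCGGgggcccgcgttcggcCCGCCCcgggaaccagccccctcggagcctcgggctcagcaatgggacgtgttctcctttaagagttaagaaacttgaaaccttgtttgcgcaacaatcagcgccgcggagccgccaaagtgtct
Tgfb1 held 5 GC boxes in this window and Smad6 held 4. Acvr2a held 2 GC boxes and 1 Smad box, Bmp6 held 1 of each, and Bmper held 1 GC box. Bmp5 held 1 Smad box and no GC box, with 42.8% G and C against 66.8% to 82.0% in the other 5.

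Against osteoblasts, primary tumours had more Bmp2, Tgfb1, Bmp6 and Bmp7 and less Bmper, Tgfbr3, Tgfb1i1, Acvr2a, Bmp4, Bmpr1a and Acvr1b. That made 11 calls among the 36 members (30.6%), 4 higher and 7 lower, where 18.5% of all genes tested were called, 6.58% higher and 11.9% lower. The median difference over the 36 was -0.28, and over all genes -0.07. Secondary tumours gave 14 calls, 5 higher and 9 lower, against 18.5% of all genes, 7.7% higher and 10.8% lower. Cell lines gave 6 calls, none higher and 6 lower, against 8.22% of all genes, 1.58% higher and 6.64% lower. The medians over members and over all genes were 0.02 and -0.02 in secondary tumours and -0.51 and -0.10 in cell lines. The cell lines' count was 3 without osteoblast culture 1. Over all genes, 19.2% of the calls between lines and osteoblasts were higher in lines, against 30.4% after quantile normalization and 35.0% with arrays scaled to a common 75th percentile, and the median over all genes moved from -0.10 to 0.06 and 0.07; none of the members' calls was higher under any of these. These 3 comparisons share the same 3 osteoblast arrays.

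Another reading of the same arrays is whether 2 groups overlap at all. Against osteoblasts, 11 of the 36 members did not overlap in primary tumours, 3 higher and 8 lower (26.3% of all genes, 8.95% higher and 17.3% lower). In secondary tumours 20 did not, 10 each way (52.4% of all genes, 24.1% higher and 28.3% lower), and in cell lines 15 did not, all of them lower (41.1% of all genes, 13.2% higher and 27.9% lower). Between cell lines and primary tumours 5 did not overlap, 1 higher and 4 lower (9.4% of all genes, 4.15% higher and 5.25% lower), and between cell lines and secondary tumours 12 did not, 2 higher and 10 lower (32.5% of all genes, 12.7% higher and 19.8% lower). Between secondary and primary tumours no member was free of overlap, against 0.0931% of all genes, 0.0543% higher and 0.0388% lower. With groups as small as 3 and 4 arrays these shares run high for all genes.

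**Figure D1:**
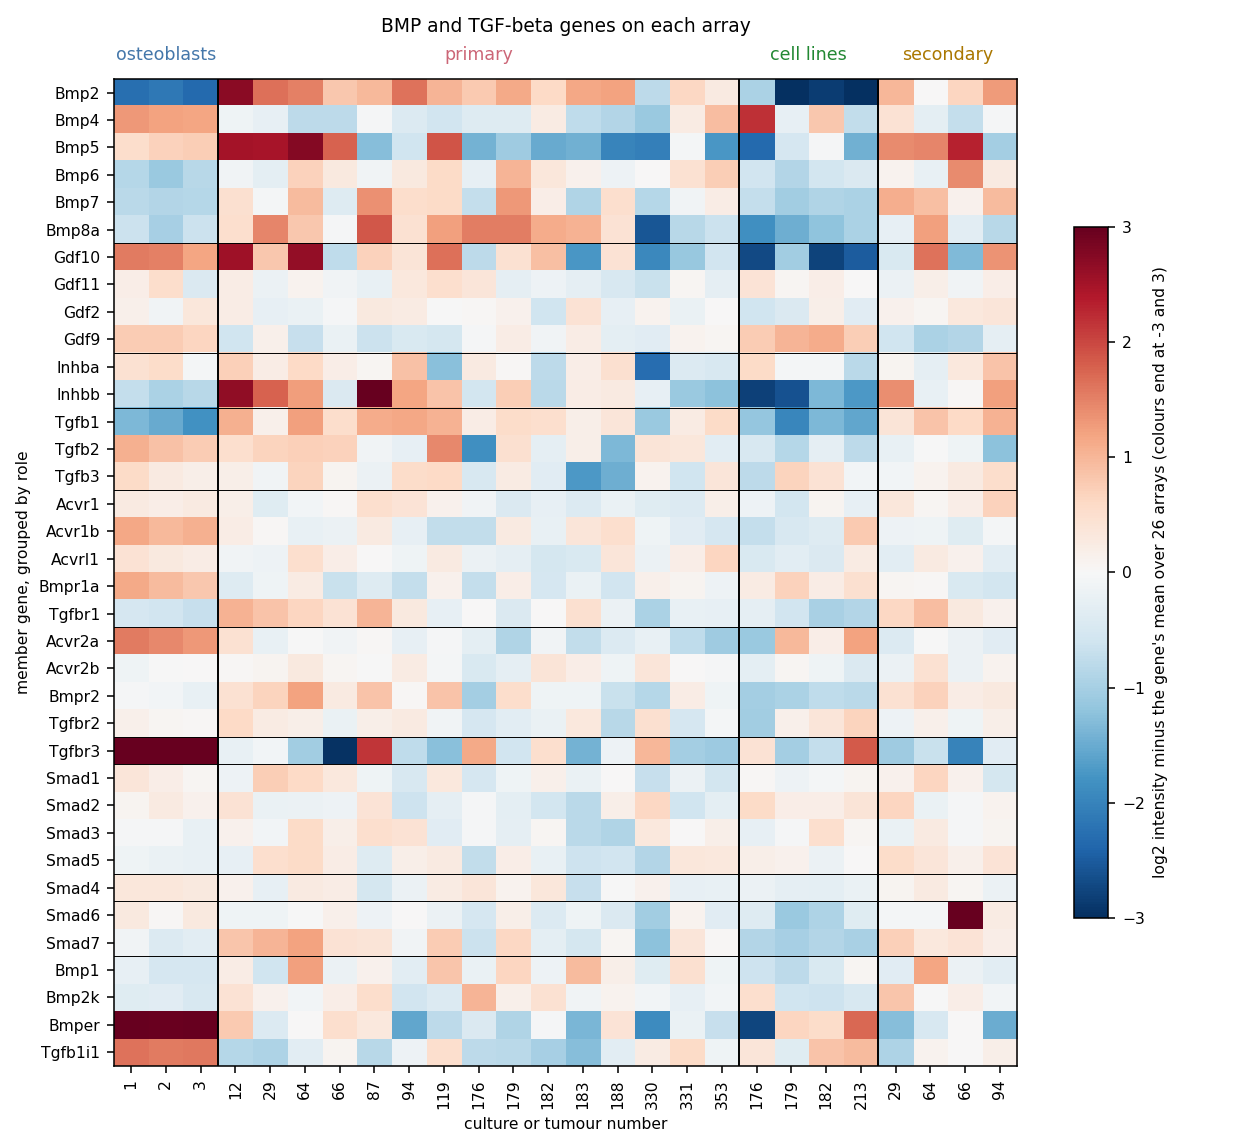
Heat map of the 36 tested members (rows, grouped by role) on the 26 arrays (columns, by group and culture or tumour number). Colour is the log2 intensity minus the gene's mean over all arrays and ends at -3 and 3; Smad6 in secondary tumour 66, at 13.80, lies beyond the scale.

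Cell lines differed from primary tumours at 9 members, 1 higher and 8 lower, against 11.7% of all genes, 4.72% higher and 7.03% lower. Bmp2, Inhbb, Gdf10, Tgfb1, Bmp8a, Smad7, Bmp7 and Bmpr2 were lower in the lines and Gdf9 was higher. Against secondary tumours the lines differed at 11 members, 1 higher and 10 lower, where 13.2% of all genes were called, 4.77% higher and 8.4% lower. There the share of higher calls over all genes was 36.2%, against 51.7% and 52.8% under the same scalings, with medians of -0.07, 0.07 and 0.08. Secondary and primary tumours differed at no member by limma (3 of 36 at an unadjusted p below 0.05), where 0.00776% of all genes, a single gene, was called and 1222 genes had an unadjusted p below 0.05. In all, 20 of the 36 were called in at least 1 comparison. The 16 never called were Acvr1, Acvr2b, Acvrl1, Bmp1, Bmp2k, Bmp5, Gdf11, Gdf2, Inhba, Smad1, Smad2, Smad3, Smad4, Smad5, Tgfb3 and Tgfbr2.

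Among BMP ligands, Bmp2, a strong inducer of bone formation, had the largest rise in primary tumours over osteoblasts. Its level was 6.23, 6.33 and 6.14 in the 3 osteoblast cultures. In primary tumours it ran from 7.70 through a median of 9.49 to 11.18, and in secondary tumours 29, 64, 66 and 94 it was 9.48, 8.49, 9.13 and 9.75. Cell lines 176, 179, 182 and 213 had 7.54, 5.42, 5.62 and 3.81. Every tumour lay above every osteoblast culture and above every cell line, while the cell lines lay on both sides of the osteoblasts. Bmp2 rose by 3.27 (SE 0.510, adjusted p = 1.71e-05) in primary tumours over osteoblasts, a 9.64-fold difference, and by 2.98 (adjusted p = 6.34e-04) in secondary tumours. In cell lines it was far lower than in primary tumours (difference -3.90, SE 0.454, adjusted p = 8.28e-07) and differed from osteoblasts by -0.63 (adjusted p = 0.539), which was not called. Within the highest control set, which holds the 4 lines and 8 primary tumours, the difference between lines and primary tumours was -3.51, again with no overlap. Macrophage and endothelial markers were also high in both tumour groups and low in both kinds of culture, and their part in the Bmp2 difference was not tested.

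Bmp6 and Bmp7, closely related BMPs expressed in bone, moved the same way by less. Bmp6 was 7.96, 7.71 and 7.98 in osteoblasts, 8.53 to 9.83 in primary tumours (median 9.11) and 8.92, 8.59, 10.24 and 9.09 in secondary tumours 29, 64, 66 and 94. No tumour overlapped the osteoblasts, and secondary tumour 66 was the highest array of all. The difference was 1.18 (SE 0.259, adjusted p = 7.42e-04) for primary tumours and 1.33 (adjusted p = 0.00208) for secondary tumours. Without tumour 66 the latter was 0.98, short of a fold of 2. Bmp7 was 5.99, 5.90 and 5.92 in osteoblasts and 5.88 to 8.16 in primary tumours (median 7.0), so that the groups overlapped; the difference of 1.06 (adjusted p = 0.0203) was not called without any 1 of the 3 osteoblast cultures (adjusted p 0.0619 to 0.0736), without primary tumour 87 (0.97) or 179 (0.98), or after quantile normalization (0.91). Secondary tumours 29, 64, 66 and 94 had 7.87, 7.68, 6.92 and 7.73 of Bmp7, all above the osteoblasts (difference 1.61, adjusted p = 0.00560). The 2 other Bmp7 probe sets gave the same call in each of its 4 called comparisons.

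In cell lines Bmp7 stood at 6.07, 5.75, 5.88 and 5.84 for lines 176, 179, 182 and 213, close to the osteoblasts and among the lowest primary tumours. It was called lower than in primary tumours (difference -1.11, adjusted p = 0.00890) and in secondary tumours (-1.66, adjusted p = 0.00338; -1.12, adjusted p = 0.157, with the control set as a covariate). Against the 8 primary tumours of the lines' own control set the difference was -0.85 (adjusted p = 0.0501), not called. Bmp6 in the lines, 7.93 to 8.38, lay below every primary tumour, but the difference of -0.86 (adjusted p = 0.00543) fell short of a fold of 2. Against secondary tumours it was just called (-1.0, adjusted p = 0.0115), and it was -0.66 without secondary tumour 66, -0.91 without line 179 and -0.95 after quantile normalization.

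Bmp4, a close relative of Bmp2, went the other way. Osteoblasts had 9.68, 9.58 and 9.58, primary tumours 7.26 to 9.31 (median 7.99), and secondary tumours 29, 64, 66 and 94 had 8.82, 8.10, 7.66 and 8.36. All tumours lay below all osteoblast cultures. Bmp4 fell by 1.57 (SE 0.400, adjusted p = 0.00278) in primary tumours. The secondary tumours' difference of -1.38 (adjusted p = 0.0286) lost its call without any 1 osteoblast culture or without secondary tumour 64 or 66 (adjusted p 0.0543 to 0.0827), and after quantile normalization (-1.16). The 4 cell lines 176, 179, 182 and 213 spread from one side of the osteoblasts to the other, at 10.58, 8.14, 9.19 and 7.64, and were not called against any group. Line 176 was the highest of all 26 arrays for Bmp4 and the highest of the lines for Bmp2.

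Bmp5 was never called, yet it was the member with the widest spread among primary tumours (SD 1.83, against a median SD of 0.507 over the 36 members and 0.368 over all genes). Primary tumours 12, 29, 64, 66 and 119 had 9.15, 9.11, 9.39, 8.41 and 8.54. The other 10 lay between 4.60 and 6.59, with no tumour in the gap between 6.59 and 8.41. Osteoblasts had 7.17, 7.33 and 7.39. Lines 176, 179, 182 and 213 had 4.32, 6.15, 6.62 and 5.20, all below the osteoblasts. Their difference of -1.72 from osteoblasts was not called, but was called when those groups alone were fitted (adjusted p = 0.0444). All 5 high tumours belonged to the lowest control set, whose remaining primaries, 87 and 94, had 5.37 and 6.05. Secondary tumours 29, 64, 66 and 94 had 8.07, 8.11, 8.95 and 5.63, so that each stood on the side of its numbered primary. On the 2 other Bmp5 probe sets the same 5 tumours also lay above the other 10 primaries. Because the high tumours share a control set, that set and the tumour cannot be fully told apart, although the set also holds tumours with low Bmp5. When secondary tumours were compared with the 8 primaries of the highest set alone, Bmp5 was the 1 member called (difference 2.45, adjusted p = 0.00648); against the 7 primaries of their own set it was -0.31.

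Bmp8a, a BMP best known from the germ line, was 7.03, 6.69 and 7.05 in osteoblasts, 5.13 to 9.55 in primary tumours (median 8.50) and 5.85, 6.23, 6.49 and 6.74 in lines 176, 179, 182 and 213. Its difference of 1.29 between primary tumours and osteoblasts was not called (adjusted p = 0.0819), but was 1.51 (adjusted p = 0.00810) without primary tumour 330, the lowest array. The lines were called lower than primary tumours (-1.89, adjusted p = 0.00696). Within the highest control set this was -1.57 (adjusted p = 0.0573), not called, while with the set as a covariate the call was kept.

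**Figure D2:**
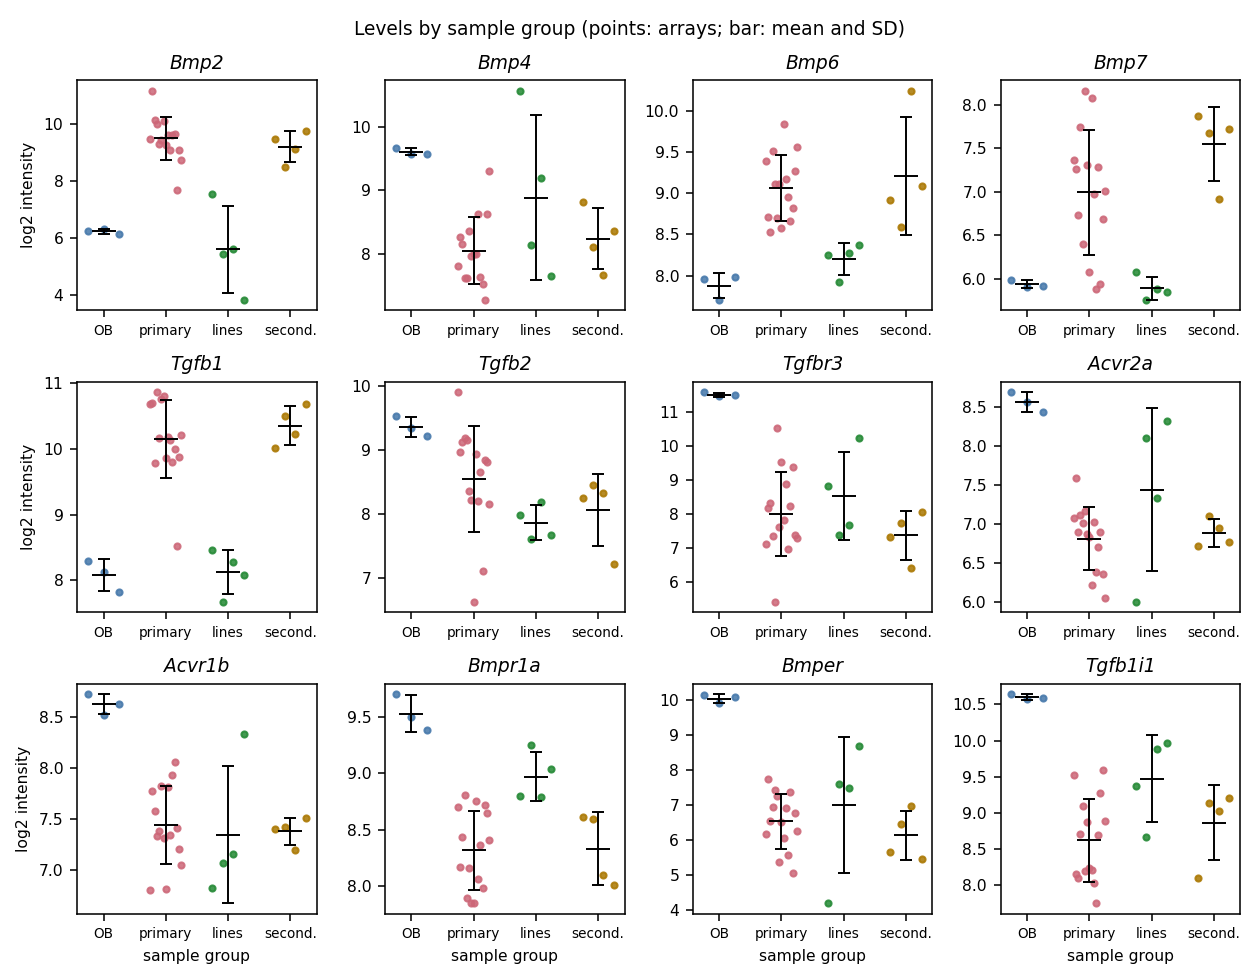
Levels (log2 intensity, vertical axes) of 12 members by sample group: osteoblasts (OB, n = 3), primary tumours (n = 15), cell lines (n = 4) and secondary tumours (n = 4); points are arrays and the black bar is the mean with its SD. Bmp2 and Tgfb1 are high in both tumour groups and low in osteoblasts and lines, while Tgfbr3 and Bmper are highest in osteoblasts.

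Of the growth and differentiation factors, 4 of 6 were tested and 2 were called. Gdf10, a ligand expressed in bone and fat lineages, was 9.49, 9.43 and 9.10 in osteoblasts and 5.21, 6.89, 5.15 and 5.43 in lines 176, 179, 182 and 213. The lines lay far below the osteoblasts (difference -3.67, SE 0.914, adjusted p = 0.00709, 12.7-fold lower). Primary tumours ran from 5.99 to 10.57 (median 8.37) and overlapped both; the lines' difference from them was -2.49 (adjusted p = 0.00546) and was -1.71 within the highest control set, still called. With the set as a covariate the same estimate had an adjusted p of 0.0537. Secondary tumours 29, 64, 66 and 94 had 7.48, 9.57, 6.61 and 9.27, and the lines' difference from them (-2.56, adjusted p = 0.0244) lost its call without line 176, 182 or 213 or without secondary tumour 64 or 94 (adjusted p 0.0535 to 0.0843), and was -0.87 (adjusted p = 0.598) with the control set as a covariate.

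Gdf9, best known as an oocyte factor, was the 1 member called higher in cell lines than in tumours. Lines 176, 179, 182 and 213 had 7.48, 7.75, 7.85 and 7.47, near the osteoblasts' 7.49, 7.47 and 7.36. Primary tumours ran from 6.04 to 6.96 (median 6.52), and secondary tumours 29, 64, 66 and 94 had 6.14, 5.78, 5.84 and 6.46. Neither tumour group overlapped either kind of culture. The lines exceeded primary tumours by 1.12 (SE 0.166, adjusted p = 1.74e-05) and secondary tumours by 1.58 (adjusted p = 1.12e-05), and within the highest control set by 0.94, short of a fold of 2. Secondary tumours were below osteoblasts by 1.39 (difference -1.39, adjusted p = 5.18e-05), while primary tumours differed by -0.93, short of a fold of 2. Gdf11 and Gdf2 differed by at most 0.53 in size in any comparison and were not called.

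Among inhibin beta subunits, which form activins and inhibins, Inhba and Inhbb were tested. Inhbb was 7.16, 6.92 and 7.04 in osteoblasts, 6.65 to 11.85 in primary tumours (median 8.14) and 5.07, 5.25, 6.52 and 6.15 in lines 176, 179, 182 and 213. Secondary tumours 29, 64, 66 and 94 had 9.27, 7.64, 7.91 and 9.10. The lines lay below every primary and secondary tumour. Their difference was -2.70 (SE 0.649, adjusted p = 0.00228) from primary tumours, -1.79 within the highest control set, where it was still called, and -2.73 (adjusted p = 0.0138) from secondary tumours. With the control set as a covariate, the last was -0.78 (adjusted p = 0.585), not called. The differences of 1.40 and 1.44 between primary or secondary tumours and osteoblasts were not called (adjusted p = 0.123 and 0.210). With those groups alone in the fit, the secondary tumours' difference was called (adjusted p = 0.0223). The lines' difference of -1.29 from osteoblasts was likewise called only in such a fit (adjusted p = 0.0360). The other Inhbb probe set was lower in the lines by about 1 log2 unit (-1.06 and -1.03) and was not called. Primary tumour 87 had the highest Inhbb, at 11.85. Inhba was not called in any comparison, with differences from -0.42 to 0.35.

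Tgfb1, the main TGF-beta of bone matrix, followed Bmp2. Osteoblasts had 8.29, 8.12 and 7.82 and lines 176, 179, 182 and 213 had 8.46, 7.68, 8.29 and 8.09. Primary tumours ran from 8.53 through a median of 10.17 to 10.86, and secondary tumours 29, 64, 66 and 94 had 10.02, 10.50, 10.23 and 10.68. Every tumour lay above every culture, although primary tumour 330, the lowest, was close to line 176. Tgfb1 rose by 2.08 (SE 0.309, adjusted p = 8.96e-06, 4.23-fold) in primary tumours over osteoblasts and by 2.28 (adjusted p = 5.55e-05) in secondary tumours. The lines were lower than primary tumours (-2.03, adjusted p = 5.93e-06), also within the highest control set (-1.70), and lower than secondary tumours (-2.23, adjusted p = 6.72e-05). They differed from osteoblasts by 0.05 (SE 0.373). The other Tgfb1 probe set gave smaller differences of the same sign, 1.01 for primary tumours over osteoblasts and -1.16 for lines against primary tumours, both called; for secondary tumours over osteoblasts it fell just short of a fold of 2. Macrophages also express Tgfb1, and their markers were high in the same 2 tumour groups; their part was not tested.

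Tgfb2 had its highest group mean in osteoblasts, at 9.53, 9.35 and 9.22, although the highest array was primary tumour 119 at 9.90. Lines 176, 179, 182 and 213 had 7.99, 7.60, 8.18 and 7.67, and secondary tumours 29, 64, 66 and 94 had 8.25, 8.46, 8.33 and 7.22, all below the osteoblasts. The difference of -1.50 in lines (adjusted p = 0.0470) and of -1.30 in secondary tumours (adjusted p = 0.0495) stood just inside the threshold. Neither was called without any 1 osteoblast culture (adjusted p 0.0848 to 0.145), without the filter on dim probe sets, after quantile normalization or with its probe sets averaged. The lines' call was also lost without any 1 of the 4 lines (adjusted p 0.0565 to 0.101) and the secondary tumours' without any 1 of numbers 29, 66 and 94 (0.0599 to 0.152). Primary tumours, 6.63 to 9.90, overlapped the osteoblasts and were not called (-0.81, adjusted p = 0.122). Tgfb3 was not called anywhere, with differences from -0.48 to 0.34.

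**Figure D3:**
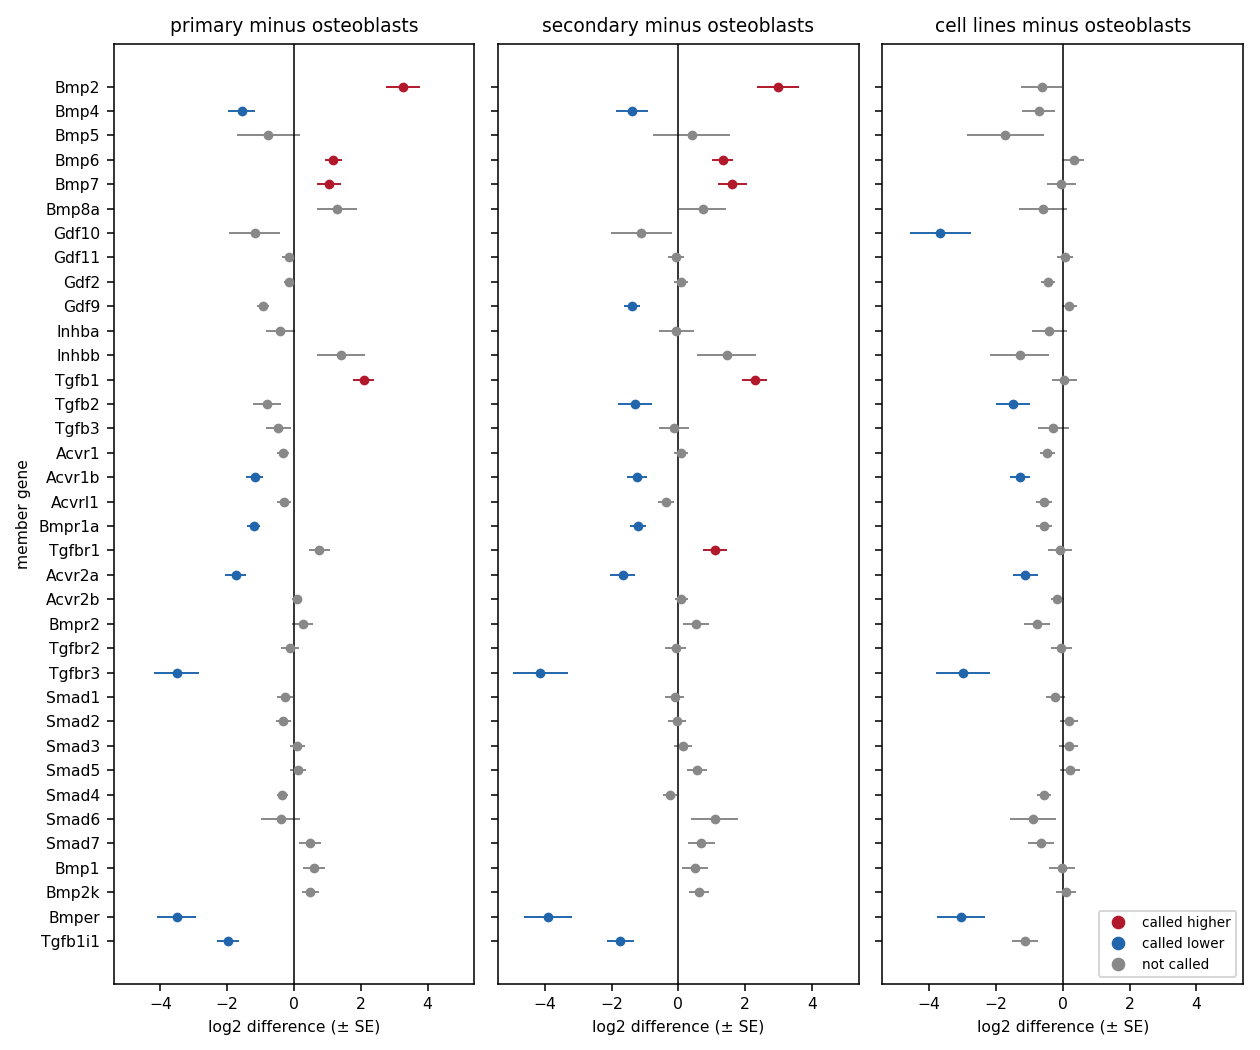
Difference in mean log2 intensity from osteoblasts, with its SE, for the 36 tested members in primary tumours, secondary tumours and cell lines; red and blue mark genes called higher or lower at a fold of at least 2 and an adjusted p below 0.05. Primary tumours have 4 red and 7 blue points, secondary tumours 5 and 9, and cell lines 0 and 6.

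Of the type I receptors, Acvr1b (the activin type I receptor) and Bmpr1a (a BMP type I receptor) were lower in tumours than in osteoblasts. Acvr1b was 8.72, 8.52 and 8.62 in osteoblasts, 6.81 to 8.06 in primary tumours (median 7.38), 7.40, 7.43, 7.20 and 7.51 in secondary tumours 29, 64, 66 and 94, and 6.83, 7.07, 7.16 and 8.33 in lines 176, 179, 182 and 213. No tumour or line reached the osteoblasts. The differences were -1.18 (adjusted p = 4.46e-04), -1.24 (adjusted p = 0.00234) and -1.27 (adjusted p = 0.00419) in primary tumours, secondary tumours and lines. The other Acvr1b probe set did not share this: its differences were -0.14, -0.09 and 0.14. With both averaged they were -0.66, -0.66 and -0.57, short of a fold of 2, and after quantile normalization the first and last of these calls were lost (both -0.99). Bmpr1a was 9.70, 9.50 and 9.38 in osteoblasts, 7.85 to 8.81 in primary tumours (median 8.36) and 8.62, 8.60, 8.10 and 8.01 in secondary tumours 29, 64, 66 and 94, again with no overlap. It fell by 1.21 (SE 0.200, adjusted p = 3.44e-05) in primary tumours and by 1.20 (adjusted p = 5.03e-04) in secondary tumours. Of its 4 other probe sets, 2 gave the same call and 1 had the opposite sign, with differences from -1.05 to 0.54 in primary tumours. With its probe sets averaged, the differences were -0.62 in primary and -0.69 in secondary tumours, and after quantile normalization -0.92 and -0.97, all short of a fold of 2. In lines it was -0.56 (adjusted p = 0.124), not called.

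Tgfbr1, the TGF-beta type I receptor, was higher in secondary tumours than in both kinds of culture. Secondary tumours 29, 64, 66 and 94 had 9.72, 10.05, 9.40 and 9.25, osteoblasts 8.60, 8.53 and 8.41, and lines 176, 179, 182 and 213 had 8.85, 8.54, 8.13 and 8.22. The secondary tumours overlapped neither. The difference from osteoblasts was 1.09 (adjusted p = 0.0218), and that of lines from secondary tumours was -1.17 (adjusted p = 0.0111). The second was -0.92, short of a fold of 2, with the gene's probe sets averaged, and -0.40 (adjusted p = 0.499) with the control set as a covariate. The first was lost when osteoblast culture 2 or 3, or secondary tumour 64, was left out (adjusted p 0.0566 to 0.0673). Primary tumours, 8.15 to 10.16, differed from osteoblasts by 0.76 (adjusted p = 0.0438), short of a fold of 2. Acvr1 and Acvrl1 were not called, with differences of at most 0.55 in size.

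Acvr1c, an activin and Nodal type I receptor also known from adipocytes, was not tested as a member, because the probe set that the members' rule takes, the brightest of all, did not pass the filter. Another of its probe sets passed the filter through the 3 osteoblast arrays alone, at 6.06 ± 0.23 (SD, n = 3), against 3.76 ± 0.25 in primary tumours (n = 15), 3.74 ± 0.20 in lines (n = 4) and 3.80 ± 0.25 in secondary tumours (n = 4). That probe set stood for Acvr1c among the 12888 genes of the fit and was not counted among the 36 members. Adipocyte markers were high in the same 3 cultures, and their part in this level was not tested.

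Of the 4 type II receptors, Acvr2a, which binds activins and some BMPs, was lower outside the osteoblasts. Osteoblasts had 8.68, 8.56 and 8.43, primary tumours 6.05 to 7.58 (median 6.89), and secondary tumours 29, 64, 66 and 94 had 6.71, 7.10, 6.95 and 6.77. Acvr2a fell by 1.74 (SE 0.310, adjusted p = 8.06e-05) in primary tumours and by 1.67 (adjusted p = 0.00132) in secondary tumours, and its other probe set gave the same calls (-2.03 and -2.14). Lines 176, 179, 182 and 213 had 6.0, 8.10, 7.33 and 8.32, below the osteoblasts but unlike each other. Their difference of -1.12 (adjusted p = 0.0442) lost its call without any 1 osteoblast culture or without line 176 or 182 (adjusted p 0.0840 to 0.177) and was -0.64 without line 176. It was also lost after quantile normalization (-0.83) and with its probe sets averaged (-0.98).

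Bmpr2, the BMP type II receptor, was lower in cell lines than in tumours. Lines 176, 179, 182 and 213 had 9.24, 9.30, 9.50 and 9.44, primary tumours 9.23 to 11.47 (median 10.48), and secondary tumours 29, 64, 66 and 94 had 10.71, 10.94, 10.48 and 10.55. The lines were below all secondary tumours (difference -1.30, adjusted p = 0.00854; -0.40, adjusted p = 0.494, with the control set as a covariate) and overlapped the lowest primary tumours (-1.03, adjusted p = 0.00651). Against the primary tumours of their own control set the difference was -0.62, short of a fold of 2. The call against primary tumours was also lost without line 176 (-0.99) or without primary tumour 29, 64, 87 or 119 (-1.0 to -0.96). Osteoblasts, at 10.22, 10.18 and 10.04, lay between. Tgfbr2 and Acvr2b, the type II receptors of TGF-beta and, like Acvr2a, of activin, were not called, with differences of at most 0.12 and 0.25 in size.

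Tgfbr3, the co-receptor betaglycan that presents TGF-beta and binds inhibin, was among the members furthest below the osteoblasts. It was 11.57, 11.46 and 11.48 in osteoblasts, 5.41 to 10.52 in primary tumours (median 7.82), 7.32, 7.72, 6.39 and 8.04 in secondary tumours 29, 64, 66 and 94, and 8.82, 7.36, 7.66 and 10.23 in lines 176, 179, 182 and 213. No other array reached the osteoblasts. The differences were -3.51 (SE 0.674, adjusted p = 1.92e-04, 11.4-fold lower) in primary tumours, -4.13 (adjusted p = 3.94e-04) in secondary tumours and -2.99 (adjusted p = 0.0133) in lines. The lines' call was lost without osteoblast culture 1 (adjusted p = 0.0508) or line 179 (0.0503). Its other probe set gave the same call in all 3 comparisons, with differences of -2.50, -2.49 and -2.23. The osteoblast cultures also carried the high adipocyte markers, whose part was not tested.

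The receptor Smads and Smad4 varied little between groups. Smad1 and Smad5, which carry BMP signals, and Smad2 and Smad3, which carry TGF-beta and activin signals, had differences between -0.34 and 0.56 in all 6 comparisons, and none was called. Smad4, the common partner, had differences from -0.55 to 0.08. In cell lines Smad4 was 10.04, 9.95, 9.92 and 10.01 for 176, 179, 182 and 213, below the osteoblasts' 10.55, 10.56 and 10.49, with a difference of -0.55 (adjusted p = 0.0733). A difference that was not called does not show that the levels were alike.

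Smad7, an inhibitory Smad that acts on both branches and is itself induced by them, was lower in cell lines than in tumours. Lines 176, 179, 182 and 213 had 8.17, 8.03, 8.16 and 8.07, close together, while primary tumours ran from 7.80 to 10.24 (median 9.41) and secondary tumours 29, 64, 66 and 94 had 9.74, 9.35, 9.44 and 9.23. The lines overlapped the primary tumours through 1 of them, number 330. The differences were -1.12 (SE 0.295, adjusted p = 0.00445) from primary and -1.33 (adjusted p = 0.00872) from secondary tumours, and the other Smad7 probe set was called the same way. Within the highest control set the difference from primary tumours was -0.72, short of a fold of 2, and with the set as a covariate that from secondary tumours was -0.48 (adjusted p = 0.450).

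Smad6, the inhibitory Smad that acts mainly on BMP signalling, had 1 array far from all others. In secondary tumour 66 its level was 13.80, an intensity of 14300.5. The other 25 arrays lay between 7.68 and 9.07, and the highest of them had an intensity of 537.8, which is 26.6-fold lower. Primary tumour 66 had 8.93, and the other secondary tumours 29, 64 and 94 had 8.73, 8.71 and 9.03. Of the 12888 genes tested, Smad6 had the largest excess on that array over the highest other array (4.73), followed by Aopep (3.83) and Gpr35 (1.28). The 10 tested genes nearest to Smad6 in the RefSeq gene order, 5 on each side and Smad3 among them, all lay within the range of the other 25 arrays. Smad6 has 1 probe set here, so that no second probe set bears on this value. The call of Smad6 as lower in lines than in secondary tumours (-1.98, adjusted p = 0.0223) rests on it: without tumour 66 the difference was -0.74. It was also lost without line 179 (adjusted p = 0.0575) or 182 (0.0514).

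Of the 4 genes that share the prefix but encode no ligand, receptor or Smad, Bmper and Tgfb1i1 were called. Bmper encodes a secreted BMP-binding regulator. It was 10.16, 9.91 and 10.08 in osteoblasts, 5.07 to 7.74 in primary tumours (median 6.55), 5.68, 6.47, 6.98 and 5.46 in secondary tumours 29, 64, 66 and 94, and 4.20, 7.60, 7.51 and 8.69 in lines 176, 179, 182 and 213. No other array reached the osteoblasts. The differences from osteoblasts were -3.51 (SE 0.590, adjusted p = 4.13e-05) in primary tumours, -3.90 (adjusted p = 1.82e-04) in secondary tumours and -3.05 (adjusted p = 0.00434) in lines. The last was not called when the arrays of those groups alone were fitted (adjusted p = 0.0531). Tgfb1i1 encodes a LIM-domain adaptor of focal adhesions. Osteoblasts had 10.64, 10.57 and 10.59, primary tumours 7.75 to 9.59 (median 8.70), secondary tumours 29, 64, 66 and 94 had 8.10, 9.13, 9.02 and 9.20, and lines 176, 179, 182 and 213 had 9.38, 8.66, 9.88 and 9.97. It fell by 1.98 (adjusted p = 3.66e-05) in primary and by 1.74 (adjusted p = 0.00163) in secondary tumours. In lines it differed by -1.13 (adjusted p = 0.0562), which was not called, but was when those groups alone were fitted (adjusted p = 0.0338). Of the 8 smooth muscle and pericyte markers, Tagln, Myh11 and Cnn1 were also highest in the osteoblast cultures by group mean and the other 5 were not; their part was not tested. Bmp1, the procollagen C-proteinase, and Bmp2k, a kinase, were not called.

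The comparison of cell lines with primary tumours differed with the control set of the tumours. When only the 8 primary tumours of the lines' own set were used, 4 of the 9 calls held: Bmp2 (-3.51), Inhbb (-1.79), Gdf10 (-1.71) and Tgfb1 (-1.70). With the 7 primary tumours of the lowest set, 12 members were called, the 9 of the full comparison among them. Calls of primary tumours against osteoblasts also differed with the set. The 7 of the lowest set added Bmp8a (1.66), Inhbb (2.44) and Tgfbr1 (1.17) as higher and Gdf9 (-1.14) as lower. The 8 of the highest set added Bmp5 (-2.06), Gdf10 (-1.97) and Tgfb2 (adjusted p = 0.0255) as lower. With those 8 the call of Bmp7 over osteoblasts was lost (0.81, adjusted p = 0.0733). Secondary tumours and lines share no set; with the set as a covariate, 3 of the 11 calls between them held, Bmp2, Tgfb1 and Gdf9. Among primary tumours, the means of the lowest and highest set lay furthest apart for Bmp5 (by 2.76), Inhbb (1.95), Gdf10 (1.69), Bmpr2 (0.90), Smad7 (0.85) and Bmp2 (0.85); no test of these gaps was run. For Bmp7 and Gdf9, whose calls were lost within the highest set, the lowest set minus the highest was 0.54 and -0.40. Inhbb was 9.48 ± 1.40 (SD, n = 7) in the lowest set and 7.53 ± 0.71 (n = 8) in the highest, Gdf10 was 9.06 ± 1.22 and 7.38 ± 1.06, and Bmpr2 was 10.88 ± 0.40 and 9.99 ± 0.54. Smad7 was 9.68 ± 0.44 and 8.83 ± 0.60. The ranges overlapped for each of these 4 genes. Whether this came from the arrays or the tumours was not tested.

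**Figure D4:**
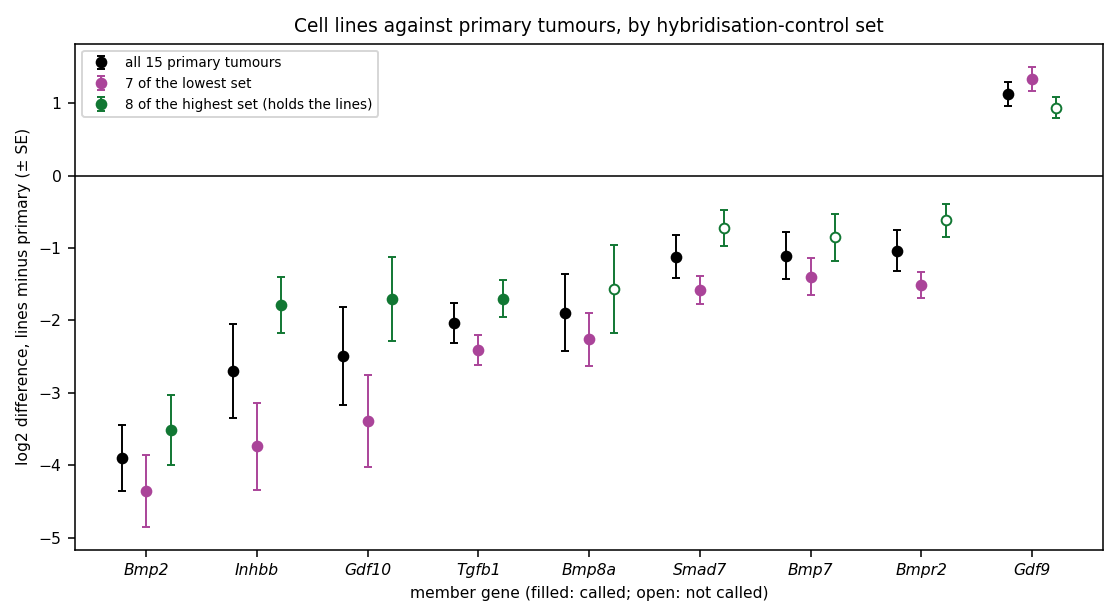
Difference in mean log2 intensity between cell lines and primary tumours (vertical axis, with SE) for members called in that comparison, using all 15 primary tumours, the 8 of the lines' own control set, or the 7 of the other set; filled points are called. Bmp2, Tgfb1, Inhbb and Gdf10 stay filled in all 3.

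Samples that carry the same tumour number were set side by side. In secondary minus primary, 5 of the 36 members were lower in all 4 pairs (13.9%, against 10.6% of all genes) and 3 were higher in all 4 (8.33%, against 9.98%). The 5 were Acvr2a, Acvrl1, Bmp2, Smad3 and Tgfb2, and the 3 were Acvr1, Bmp4 and Gdf2. For Bmp2, secondary minus primary was -0.66, -1.51, -0.17 and -0.37 for tumours 29, 64, 66 and 94, lower in 4 of 4. Tgfb2 was also lower in 4 of 4 (-0.88, -0.72, -0.84 and -1.0), and Bmp4 higher in 4 of 4 (0.67, 0.49, 0.05 and 0.39). None of these was called in the fit with or without the tumour number as a block. Bmp1 was 11.10 in primary 64 and 11.06 in secondary 64, where the other secondary tumours had 9.54 to 9.71 and the other primaries 9.28 to 10.83. Lines 176, 179 and 182 were set beside the primaries of the same number, although the labels do not say that they came from them. In all 3 pairs 13 members were lower in the line (36.1%, against 25.1% of all genes) and 6 were higher (16.7%, against 25.4%). Bmp2 differed by -1.72, -4.19 and -3.47, Tgfb1 by -1.39, -2.51 and -1.85, and Gdf10 by -1.93, -1.49 and -3.68. Bmp8a differed by -3.38, -2.99 and -2.31. These 4 were among the 13, with Bmp1, Bmp2k, Bmp6, Bmp7, Inhbb, Smad4, Smad7, Tgfbr1 and Tgfbr3; the 6 were Bmp4, Bmpr1a, Gdf11, Gdf9, Smad2 and Tgfb1i1.

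**Figure D5:**
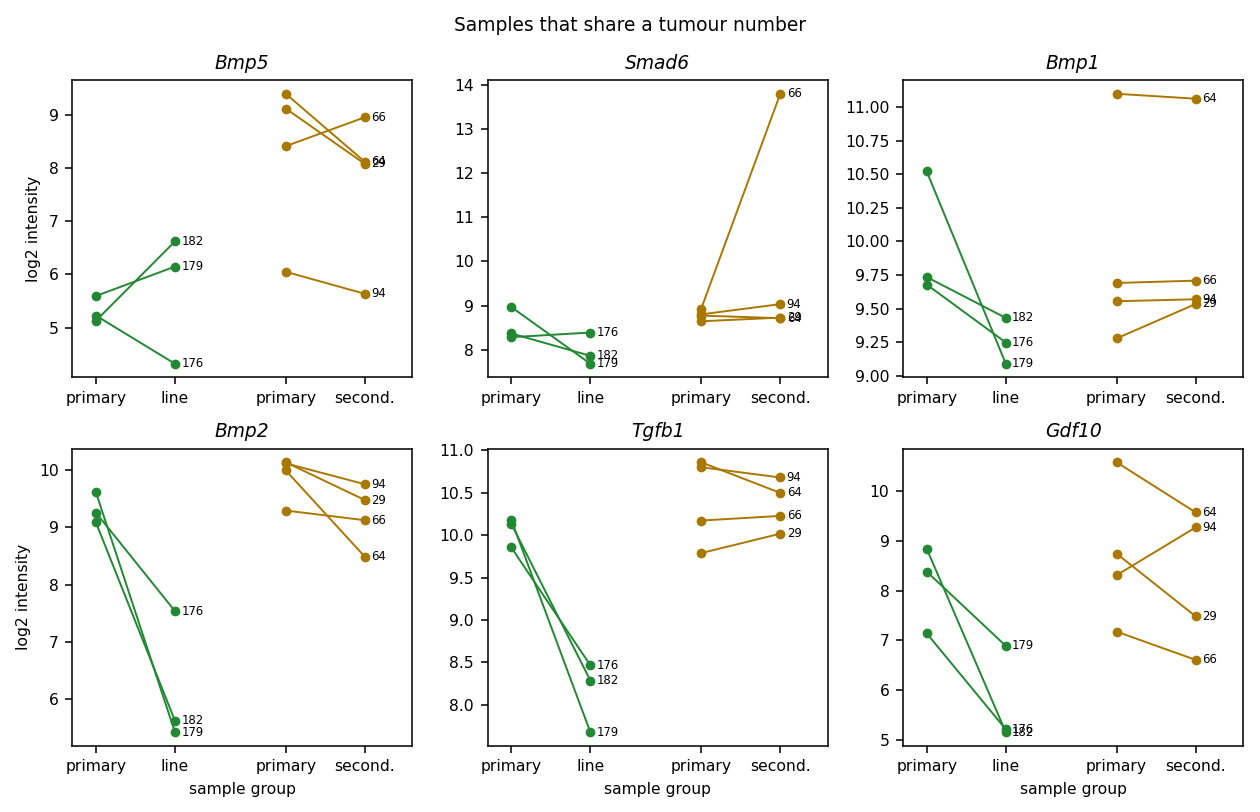
Log2 intensity of 6 members in samples that share a tumour number. Strokes join the primary tumour to the cell line (176, 179, 182) or secondary tumour (29, 64, 66, 94) of that number. The labels do not say that the lines came from the primary tumours of their number. Smad6 rises in tumour 66 from 8.93 to 13.80, Bmp5 keeps its high or low side in the 4 secondary tumours, and Bmp2 is lower in all 3 cell lines.

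Other genes of the pathway were taken from lists. Of 24 extracellular antagonists and binding proteins, 21 were tested; in primary tumours 1 rose and 5 fell against osteoblasts, and in secondary tumours 1 rose and 6 fell. Over all genes 18.5% were called in each of these comparisons, 6.58% higher and 11.9% lower in primary tumours and 7.7% higher and 10.8% lower in secondary tumours. The largest falls in primary tumours were those of Chrdl1, a BMP antagonist (-4.84), Ltbp2, of the latent TGF-beta binding protein family (-3.63), Fst, which sequesters activin (-3.54), and Crim1 (-1.61), while Nbl1, another BMP antagonist, rose by 1.56. In cell lines 0 of the 21 rose and 4 fell against osteoblasts, Chrdl1, Fst, Dcn and Fmod. Over all genes 1.58% were called higher there and 6.64% lower. Against primary tumours 4 rose in lines (Chrdl1, Fst, Grem1 and Ltbp2) and 2 fell (Nbl1 and Dcn), where 4.72% of all genes were called higher and 7.03% lower. The median difference of this list between primary tumours and osteoblasts was -0.24, against -0.07 over all genes.

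Of 9 genes for ligand processing and activation, 6 were tested. Over all genes, 6.58% were called higher and 11.9% lower in primary tumours than in osteoblasts, and 7.7% and 10.8% in secondary tumours. In lines the shares were 1.58% and 6.64% against osteoblasts and 4.72% and 7.03% against primary tumours. Thbs1, which can activate latent TGF-beta, fell in primary tumours (-4.67) and in lines (-2.71) against osteoblasts. The proprotein convertases Pcsk5 and Furin fell in lines against primary tumours (-3.38 and -1.55) and against osteoblasts (-3.10 and -1.51). Among the co-receptors and decoys, 6 of 7 were tested. Bambi, a decoy receptor, rose by 1.36 in primary and by 1.96 in secondary tumours over osteoblasts and was lower in lines than in primary tumours (-2.50), and Eng, an endothelial co-receptor, rose by 1.11 in primary tumours, where endothelial markers were also high. Of 5 other ligands of the superfamily, 2 were tested and none was called, with 0 of 2 in each comparison.

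All 16 listed intracellular regulators were tested. In primary tumours Skil, a Smad co-repressor, rose over osteoblasts (1.43) and the ubiquitin ligases Nedd4l (-1.29) and Smurf2 (-1.02) fell. These calls, 1 of 16 higher and 2 lower, were near the shares over all genes, 6.58% higher and 11.9% lower. Tgif1, another co-repressor, was 1.07 higher in lines than in primary tumours, while Skil was lower there (-1.03). That was 1 of 16 each way, against 4.72% of all genes higher and 7.03% lower. Of 12 genes that BMPs are known to induce, 11 were tested. Against osteoblasts, Hey1 (3.38), Sp7 (1.67) and Dlx5 (1.22) rose and Id4 (-2.85) and Atoh8 (-2.26) fell in primary tumours. In lines against primary tumours, where 4.72% of all genes were called higher and 7.03% lower, none of the 11 rose and 4 fell: Sp7 (-2.17), Hey1 (-1.98), Dlx5 (-1.10) and Dlx3, which lay at the floor in all 4 lines and was at least 4.92-fold lower. Sp7 is also an osteoblast marker. Of 13 genes that TGF-beta is known to induce, 12 were tested. In primary tumours, where 6.58% of all genes were called higher and 11.9% lower than in osteoblasts, 2 rose, Pmepa1 (1.19) and the Skil named above, and 4 fell: Thbs1 (-4.67), Tagln (-4.20), Acta2 (-3.03) and the cell cycle inhibitor Cdkn2b (-1.98). The median difference of the 12 was -0.74, against -0.07 over all genes. Those 4 genes were all higher in lines than in primary tumours, Tagln by 3.44, Acta2 by 3.18, Cdkn2b by 2.26 and Thbs1 by 1.95, while Skil was lower. Tagln and Acta2 are also smooth muscle markers, a list whose other genes went both ways, and the part of such cells was not tested. Between secondary and primary tumours no gene of these 7 lists was called by limma.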

How the data were processed

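RNA of the 26 samples was labelled with biotin and hybridised to 1-colour oligonucleotide arrays, per the labels' protocols. The deposited values are linear intensities, 1 per probe set, made by the authors. The software that summarised and scaled them is not given in the sources used here. Array medians between 44.4 and 58.8 were taken as a sign that arrays were already scaled. Even so, every tumour array had a higher median than every osteoblast and cell line array. No array scan was used, so array number limits the precision and no detection call could be made. Of 45101 probe sets, 64 were controls, and GEO's platform annotation gave 34958 a single symbol, 932 several and 9211 none; 34754 of the singly named were matched to RefSeq by gene ID. Symbols from that annotation can be old, and a probe set with several symbols named no gene. The table held 0 columns of other samples.

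Values under the 20th percentile of the whole table (12.5, a log2 of 3.64) were set to it, which held for 18.6% to 23.3% of values per array, and log2 was taken without further normalization. Probe sets needed at least 3 arrays above the median of all values (52.6), and of a gene's kept probe sets the brightest on average stood for it; a member was tested only if the brightest of all its probe sets was kept, which left out 1 gene of the fit, Acvr1c. A linear model over 4 groups and all 26 arrays was fitted with limma 3.58.1 in R 4.3.3 (lmFit, eBayes) for 6 comparisons, with Benjamini-Hochberg adjustment over 12888 genes, and the script was first tested on simulated data. The hybridisation control sets were read from the ratio of bioB to bioC probe sets, which lay at 0.418 to 0.460, 0.505 to 0.521 and 1.16 to 1.28 in the 3 sets. Osteoblast cultures 1 and 2 were the most alike arrays (r of 0.991, 0.574% of values identical), and all arrays were kept as separate samples.

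The members, the pathway and marker lists and the rules were chosen with earlier results of these data known. All members were to be accounted for, those called named with values, and at most 4 called genes per pathway list and comparison named by size; Nbl1, Dlx5, Pmepa1, Chrdl1 and Grem1 fall outside that limit where they are named and were named after their values were seen. Secondary tumours carry the numbers of primary tumours in their labels, and their deviations from the group means correlated with the primary of the same number at 0.449, 0.302, 0.224 and 0.642 for 29, 64, 66 and 94, in each case more than with any other primary. The tumour number was therefore also fitted as a block. Alternatives were another floor, a pseudocount of 16, other filters, other scalings, the mean of a gene's probe sets, array weights, fits on both groups alone, the control sets, and leaving out each array. Testing every kept probe set on its own was added after the data were seen.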

Additional observations from a re-analysis of the deposited data

Results flagged for a closer look

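Single arrays stood apart from the other 3 of their group in 6 of 72 combinations of a tested member and a group of 4, by Dixon's test at its 95% critical value, which chance alone passes in about 1 of 20 groups. Smad6 was 13.80 in secondary tumour 66, where the other secondary tumours had 8.71 to 9.03. Bmp1 was 11.06 in secondary tumour 64 (others 9.54 to 9.71), and its primary tumour of that number had 11.10. Tgfb2 was 7.22 in secondary tumour 94 (others 8.25 to 8.46), and Tgfb1i1 was 8.10 in secondary tumour 29 (others 9.02 to 9.20). Among cell lines, Gdf10 was 6.89 in line 179 (others 5.15 to 5.43) and Bmp2k was 8.84 in line 176 (others 7.70 to 7.85).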

How the results depend on the processing

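Of 51 calls over the 6 comparisons, 23 were made under every alternative run and none turned its sign. For cell lines against osteoblasts, 1 of 6 calls held under every alternative, with 3 calls after quantile normalization and 3 with the mean of each gene's probe sets; for primary tumours against osteoblasts 8 of 11 held, and for secondary tumours against osteoblasts 8 of 14. For cell lines against primary tumours 3 of 9 held, with 4 calls using only primary tumours of the highest control set and 4 with the set as a covariate; for cell lines against secondary tumours 3 of 11 held, with 3 calls with the set as a covariate. Secondary and primary tumours gave 1 call with primary tumours of the highest set only, and 0 otherwise. Leaving out 1 array at a time gave 10 to 12 calls for primary tumours, 3 to 6 for cell lines and 11 to 13 for secondary tumours against osteoblasts, 8 to 11 for cell lines against primary tumours, 9 to 12 against secondary tumours, and 0 for secondary against primary tumours; the 3 came without osteoblast culture 1. With the tumour number as a replicate block, cell lines against primary tumours gave 6 calls, 5 of them among the 9, and secondary against primary tumours gave 0. Lines 176, 179 and 182 carry the numbers of primary tumours, but the labels do not say that they were grown from them. Their deviations correlated with those primaries at 0.0355, 0.0813 and 0.0387, and none best with its own. This cannot decide their origin, because lines and bulk tumours also differ in the cells they hold. Testing every kept probe set on its own gave the same counts. Those counts were of the same chosen probe sets, with p-values adjusted over more tests, and do not bear on the members' other probe sets. The cause of these differences was not tested. Of 29 calls with other kept probe sets, 14 were made by all of them and 9 by none. In 3 of the 29, at least 1 other probe set had the opposite sign. Only 3 cultures stand for osteoblasts, and intensities near the floor have no order.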

Other observations

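Among the 15 primary tumours, the level of each of the 20 members called somewhere was set against the mean level of 4 marker lists (macrophage, endothelium, osteoblast and skeletal muscle), 80 relations in all. None passed Benjamini-Hochberg adjustment over the 80 by Pearson's r or by both measures (permutation tests with 100000 draws, two-sided). Tgfb1i1 and the macrophage list had a Pearson's r of -0.654 (permutation p = 0.00832, adjusted 0.150) and a Spearman's rho of -0.771 (permutation p = 0.00128, adjusted 0.0576). It was -0.703 without the 2 tumours farthest from the median of the list, and -0.742 and -0.659 within the lowest and highest control sets (n = 7 and n = 8). Acvr1b and the macrophage list had an r of 0.665 (permutation p = 0.00697, adjusted 0.150) and a rho of 0.764 (permutation p = 0.00144, adjusted 0.0576), with 0.732 without the 2 farthest tumours and 0.726 and 0.724 within the sets. Tgfbr1 and the osteoblast list had an r of 0.656 (permutation p = 0.00454, adjusted 0.150) and a rho of 0.632 (permutation p = 0.0130, adjusted 0.177), with 0.489 without the 2 farthest tumours and 0.499 and 0.859 within the sets. Bmp2 and the osteoblast list had an r of 0.749 (permutation p = 0.00519, adjusted 0.150) and a rho of 0.643 (permutation p = 0.0111, adjusted 0.177), with 0.631 without the 2 farthest tumours and 0.556 and 0.912 within the sets. For Bmp2 and Tgfbr1 alike, the value within the highest set includes primary tumour 330. Its osteoblast list mean was 7.23, against 9.73 to 11.53 in the other primary tumours, and its Bmp2 of 7.70 was the lowest. For Bmp2 and the macrophage list r was 0.310 (permutation p = 0.260) and rho was 0.321 (permutation p = 0.242). With the endothelial list Bmp2 had an r of 0.422 (permutation p = 0.121, adjusted 0.387) and a rho of 0.546 (permutation p = 0.0380, adjusted 0.234). With the skeletal muscle list it had an r of 0.576 (permutation p = 0.0210, adjusted 0.168) and a rho of 0.489 (permutation p = 0.0664, adjusted 0.295). For Tgfb1 and the macrophage list r was -0.0133 (permutation p = 0.963) and rho was -0.196 (permutation p = 0.484).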
